A study of Mus musculus with 5 samples.

Results

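Lhx1, Lhx2, Lhx6, Lhx8, Lhx9 and Isl1 are 6 genes of the LIM homeodomain family, and their RNA was followed here in single nuclei of the mouse paraventricular hypothalamus (PVH). They were taken by symbol from the feature list, as 6 of 31054 features, by a rule that uses no threshold on measured values. Each was present in the files of all 5 libraries. The data are counts of unique molecules (UMIs, one per captured RNA molecule) from droplet single-nucleus RNA sequencing, and each library pooled nuclei from 2 to 4 animals, all males with a C57BL6 background.

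In the first experiment the mice carried OT-Cre (a Cre recombinase driven from the oxytocin gene) with the Rosa26tm9(CAG-tdTomato)Hze reporter, also called Ai9, and were 5 weeks old. One library came from offspring of dams given saline (10 mL/kg) on gestation day 12.5, and one from offspring of dams given sodium valproate (VPA, 500 mg/kg) on the same day. In the second experiment the mice carried OT-Cre with Rosa26dreaddm3 (stop-hM3), a Cre-dependent hM3 receptor that clozapine N-oxide (CNO) activates, and were 5 to 7 weeks old. All mice of that experiment, its controls included, had been exposed to VPA before birth, and the labels also mention an AAV injection in the PVH and supraoptic regions whose content is not given in the sources used here. One library (hM3 control) came from mice given saline on postnatal day 2, and 2 libraries (CNO 1 and CNO 2) from mice given CNO on that day. The Cre-dependent alleles act in oxytocin neurons, whereas the nuclei measured were of all types in the dissected block, sorted with a preference for larger nuclei. There was thus 1 library for each of saline, VPA and hM3 control, and 2 for CNO. Contrasts between treatments therefore have no replicate test, and their intervals are 95% exact Poisson intervals on the counts, which cover counting error only.

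LIM homeodomain proteins bind DNA through a homeodomain and bind partner proteins through a pair of zinc-finger LIM domains. The adaptor Ldb1 joins them into complexes on DNA, Lmo proteins compete for that adaptor, and Ssbp proteins protect the complex from degradation. Different family members mark different neuron lineages. Lhx6 and Lhx8 act in ventral forebrain progenitors that give rise to GABAergic and cholinergic neurons, Lhx2 and Lhx9 in the developing thalamus, Lhx1 in the suprachiasmatic nucleus, and Isl1 in GABAergic and peptidergic neurons of the ventral hypothalamus and in the striatum. Lhx2 is also needed in tanycytes, glial cells that line the third ventricle.

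The 6 genes lie on 5 chromosomes, and no member is a neighbour of another (GENCODE vM21, mm10). Lhx1 (ENSMUSG00000018698) lies at chr11:84518284-84525535 on the minus strand, Lhx2 (ENSMUSG00000000247) at chr2:38339281-38369733 on the plus strand, and Lhx6 (ENSMUSG00000026890) at chr2:36081953-36105408 on the minus strand. Lhx8 (ENSMUSG00000096225) lies at chr3:154306294-154330659, Lhx9 (ENSMUSG00000019230) at chr1:138825186-138848577 and Isl1 (ENSMUSG00000042258) at chr13:116298281-116309689, all on the minus strand. The antisense genes Gm27197 and Gm13584 overlap Lhx2. Whether the counting used strand is not given in the sources used here, so Lhx2 counts are read with that limit.

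2 stretches of sequence are shown as context for genes whose levels were alike, and no level given below depends on them. The first is the 125 bases between the annotated start of Lhx1 and that of its divergent long non-coding neighbour Lhx1os (chr11:84525660-84535831, plus strand), whose level followed Lhx1 most closely. It is chr11:84525535-84525659, printed on the minus strand from RefSeq (GRCm38.p6), and 66.4% of its bases are G or C. The gene bodies are 124 bases apart in GENCODE vM21.
Lhx1 to Lhx1os: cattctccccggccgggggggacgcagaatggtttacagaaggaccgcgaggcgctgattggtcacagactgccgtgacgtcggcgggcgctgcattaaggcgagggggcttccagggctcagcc

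The second set is the 250 bases before start sites that RefSeq gives for Lhx9 and Lhx2, the pair of members whose levels were most alike. They were searched for 4 letter forms of the TCF/LEF motif on both strands, namely CTTTGAA with its variant CTTTGAT, and the form CTTTGTA with its variant CTTTGTT, because Tcf7l2, a factor of that family, was among the genes most like Lhx9. Capitals mark the matches. The sequences are from RefSeq (GRCm38.p6), for Lhx9 chr1:138842445-138842694 on the minus strand and for Lhx2, which has 2 start sites, chr2:38339031-38339280 and chr2:38351058-38351307 on the plus strand. The Lhx9 window precedes a start at base 138842444 and lies inside the GENCODE gene body, which reaches base 138848577, and the second Lhx2 window also lies inside its gene body.
Lhx9 promoter: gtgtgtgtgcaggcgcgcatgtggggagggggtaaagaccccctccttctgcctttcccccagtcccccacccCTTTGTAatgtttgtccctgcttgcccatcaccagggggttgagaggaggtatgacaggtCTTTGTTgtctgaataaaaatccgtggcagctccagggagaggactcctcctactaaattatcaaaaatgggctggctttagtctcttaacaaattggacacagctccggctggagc
Lhx2 promoter, first start: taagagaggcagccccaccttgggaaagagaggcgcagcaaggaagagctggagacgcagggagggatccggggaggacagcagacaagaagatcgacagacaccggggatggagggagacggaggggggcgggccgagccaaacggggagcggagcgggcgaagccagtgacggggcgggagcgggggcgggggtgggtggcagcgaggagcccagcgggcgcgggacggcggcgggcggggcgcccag
Lhx2 promoter, second start: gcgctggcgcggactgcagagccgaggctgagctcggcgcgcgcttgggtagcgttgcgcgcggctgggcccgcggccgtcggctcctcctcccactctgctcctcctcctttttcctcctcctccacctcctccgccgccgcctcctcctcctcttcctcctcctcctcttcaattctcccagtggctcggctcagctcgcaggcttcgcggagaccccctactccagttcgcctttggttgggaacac

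The Lhx9 window held 2 matches, 177 and 117 bases before the start, and the 2 Lhx2 windows held none. Of the other members, Lhx6 held 1 match in 1 of its 3 windows, 28 bases before the start (TACAAAG), and Lhx1, Lhx8 and Isl1 held none. Such a match was present in 14.8% of all 32817 promoter windows of the same length (4871 windows). The homeodomain core letters TAATTA, present in 4.85% of windows (1590), were in no promoter window of the 6 members. These are letter matches and not measured binding sites.

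The deposited matrices held 32292 nuclei, of which 29537 passed the filters and 18754 lay in clusters with neuron markers. Total counts per library ran from 52506958 to 76243280 UMIs, and median UMIs per nucleus from 3722.5 (CNO 2) to 11913 (CNO 1). Pairs of libraries shared 4 to 23 cell barcodes. A neuron-like nucleus was called GABAergic where the sum of Slc32a1, Gad1 and Gad2 was at least 2 UMIs and at least 4 times that of the vesicular glutamate transporters Slc17a6, Slc17a7 and Slc17a8, and glutamatergic in the reverse case. This gave 7845 GABAergic nuclei (1557 saline, 2759 VPA, 1616 hM3 control, 1297 CNO 1, 616 CNO 2) and 2490 glutamatergic nuclei (817, 528, 402, 459 and 284 in the same order). Of the GABAergic calls, 4.49% fell in sub-clusters that were mainly glutamatergic, with 3.15% in the saline and 10.4% in the CNO 2 library. Levels below are CPM (a gene's UMIs per 1000000 UMIs of the class), given in the order saline, VPA, hM3 control, CNO 1, CNO 2. The files give no values per gene length, so each gene is compared with its own level elsewhere and not with another gene's.

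Lhx1, Lhx6, Lhx8 and Isl1 were higher in GABAergic neurons and Lhx2 and Lhx9 in glutamatergic neurons, in each of the 5 libraries. The comparison asks in which transmitter class each gene is found. Isl1, a factor of GABAergic hypothalamic neurons, stood at 50.1, 41.3, 35.0, 33.4 and 35.9 CPM in GABAergic nuclei. In glutamatergic nuclei it stood at 0.383, 1.02, 1.25, 3.78 and 2.30 CPM. The lowest GABAergic library was far above the highest glutamatergic one, and the glutamatergic values lay around the 2.81 CPM found in nuclei of oligodendrocyte-marker clusters, which should lack the gene. Not all of that class was at this level. A mainly glutamatergic sub-cluster led by Nr5a1 (S26) held Isl1 at 14.1 CPM with libraries summed, and at 17.6 CPM in CNO 1 (56 UMIs). The class means were 39.2 ± 6.79 and 1.75 ± 1.33 CPM (SD, n = 5 libraries each). Across libraries the difference was 4.47 ± 0.32 on the log2 scale (edgeR, ± SE, adjusted p = 5.48e-06). It was 3.86 without the saline library and 5.35 without CNO 1, and 4.38 to 4.56 without any one of the others.

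Lhx1 was at 4.99, 7.47, 7.49, 9.34 and 11.1 CPM in GABAergic nuclei. It was at 0.638, 0.817, 2.04, 3.13 and 3 CPM in glutamatergic nuclei. The 2 classes did not overlap, but their distance was the smallest among the 6 genes, and in both classes the saline library was the lowest. The difference was 1.97 ± 0.21 (edgeR log2, adjusted p = 7.16e-05). Counted over all nuclei, Lhx1 was 4.36 times as high in GABAergic nuclei (counting interval 3.46 to 5.57).

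Lhx6, which specifies interneurons of the ventral forebrain and is kept in mature ones, was at 11.1, 6.92, 9.89, 12.4 and 2.86 CPM in GABAergic nuclei. In glutamatergic nuclei it had 2, 0, 2, 1 and 0 UMIs in all. Lhx8, its relative in the cholinergic lineage, was at 5.46, 1.96, 6.49, 3.03 and 1.43 CPM in GABAergic nuclei and had 0, 2, 1, 0 and 0 UMIs in glutamatergic nuclei. Both were thus close to undetected in the glutamatergic class. In nuclei of clusters set aside as mixed, Lhx6 was at 2.26 CPM and Lhx8 at 1.45 CPM, near their GABAergic levels in CNO 2. Lhx6 and Lhx8 passed the expression filter of the test through the GABAergic sums alone (0 of 5 glutamatergic sums reached the 0.754 CPM needed), so a difference was built into their being tested. The fitted log2 differences, 6.26 ± 0.25 (SE) for Lhx6 and 5.70 ± 0.53 for Lhx8, are therefore given as descriptions with no p, the latter being 4.90 without the saline and 7.02 without the VPA library. By counts over all nuclei, Lhx6 was 85.3 times (36.5 to 263) and Lhx8 62.1 times (21.1 to 302) as high in GABAergic nuclei. For single libraries with no glutamatergic UMI, against a floor of 3 counts per library, Lhx6 was at least 11.3-fold higher (VPA) and at least 4.13-fold higher (CNO 2). Lhx8 was at least 28.5-fold (saline), 11-fold (CNO 1) and 2.07-fold (CNO 2) higher. With 2 glutamatergic UMIs in the VPA library and 1 in the hM3 control, Lhx8 was 4.79-fold (1.24 to 40.9) and 57.1-fold (10.1 to 2266) higher.

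Lhx2 ran the other way, at 13, 14.5, 11.9, 12.7 and 14.7 CPM in glutamatergic nuclei against 1.32, 1.35, 1.88, 1.06 and 3.52 CPM in GABAergic nuclei. Lhx9 was at 20.7, 18.4, 18.2, 17.4 and 24.0 CPM in glutamatergic nuclei against 0.564, 1.10, 1.95, 2.05 and 4.07 CPM in GABAergic nuclei. Neither gene's classes overlapped, and the glutamatergic values varied little between libraries (13.4 ± 1.20 CPM for Lhx2 and 19.7 ± 2.67 CPM for Lhx9, SD, n = 5). The class difference was -3.11 ± 0.19 for Lhx2 (edgeR log2, adjusted p = 1.96e-06) and -3.59 ± 0.25 for Lhx9 (adjusted p = 3.94e-06). For both genes the highest GABAergic value was that of CNO 2, the library with the largest share of GABAergic calls in glutamatergic sub-clusters (10.4%). Over all libraries, 47.1% of the Lhx2 UMIs and 54.1% of the Lhx9 UMIs of GABAergic-called nuclei lay in sub-clusters that were themselves mainly GABAergic. In CNO 2 this share was 40.6% for Lhx2, within the 32.1% to 66.7% of the other libraries, and 21.6% for Lhx9, below their 60.0% to 66.7%. The part of such calls in the GABAergic level was not tested. With nuclei classed by sub-cluster instead, the fitted difference was -3.33 for Lhx9, 4.01 for Lhx6 and 3.03 for Lhx8.

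Over the whole table, 4313 of 15791 genes tested passed at an adjusted p of 0.05, or 27.3% (12.4% higher and 14.9% lower in GABAergic nuclei). Of all calls, 45.3% were higher in GABAergic nuclei, a share that was 56.5% with no expression filter, 52% with sub-cluster classes and 32.1% without library as a term. Lhx1 and Isl1 (higher) and Lhx2 and Lhx9 (lower) passed here and in all 11 alternative analyses, in which the highest adjusted p was 0.00392 for Lhx1. No count over the members is read as support, because of the filter on Lhx6 and Lhx8. The p-values measure the spread between pooled libraries of different treatments, and counts of nuclei within a library are not replicates.

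**Figure D1:**
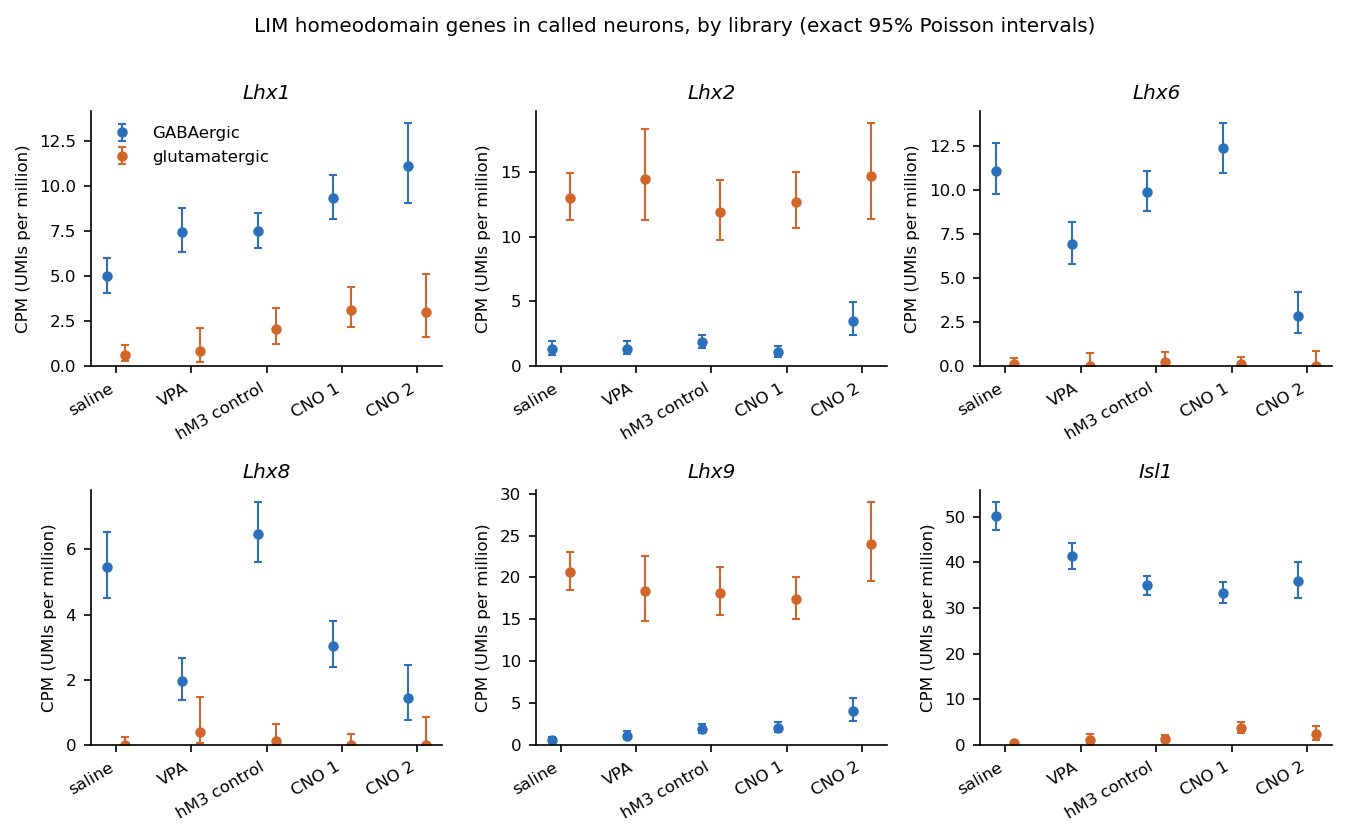
Levels of the 6 genes in CPM (y axis) in GABAergic and glutamatergic nuclei of each library (x axis), with 95% Poisson intervals as bars. Lhx1, Lhx6, Lhx8 and Isl1 lie higher in the GABAergic class in every library, and Lhx2 and Lhx9 in the glutamatergic class.

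As shares of nuclei the genes were sparse. Isl1 had at least 1 UMI in 29.3% of GABAergic nuclei, Lhx6 in 7.52%, Lhx1 in 7.24% and Lhx8 in 2.69%, while Lhx9 had one in 19.0% and Lhx2 in 15.8% of glutamatergic nuclei. These shares depend on depth. For Isl1 the VPA library was lowest before thinning, at 21.3% against 33.4% to 34.2% in the other libraries. With each nucleus thinned to 2000 UMIs, which left out 0 to 5 shallower GABAergic nuclei per library, the shares were 8.41%, 7.77%, 6.32%, 6.94% and 7.00%. At equal depth the VPA library was thus second highest, and no order is read from the unthinned shares.

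The other genes that work with these factors, from lists of family members and partners, were also compared between the classes. Of the 6 other LIM homeodomain genes listed, 2 were expressed enough to test, and both were lower in GABAergic nuclei. These were Lhx5 (-1 ± 0.21, edgeR adjusted p = 0.00469) and Lmx1a (-0.83 ± 0.27, adjusted p = 0.0448). Of 10 LIM cofactors, all tested, 1 was higher, 2 were lower and the median was -0.02, beside 0.01 over all genes tested. Ssbp2, a stabiliser of the complex, was higher (0.54 ± 0.05, adjusted p = 1.84e-05). The adaptor Ldb2 (-0.55 ± 0.04, adjusted p = 7.84e-06) and the LIM-only protein Lmo4 (-0.44 ± 0.07, adjusted p = 0.000926) were lower. Ldb1, the common adaptor, did not pass (-0.07 ± 0.09, adjusted p = 0.697). The changes of the cofactors were thus under 1 log2 unit, on a scale where that of Lhx1, the smallest among the members, was 1.97.

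Genes of the lineages in which the members are known to act were compared in the same way, and the lists did not all follow the members. Of 11 ventral forebrain GABA lineage genes, 10 were tested and 6 were higher in GABAergic nuclei. Dlx1 (4.98 ± 0.14, edgeR log2, adjusted p = 3.4e-08) and Sox6 (2.58 ± 0.18, adjusted p = 4.63e-06), transcription factors of that lineage, were among them, as were Dlx2 and Dlx5. Nkx2-1, the regulator upstream of Lhx6 in the medial ganglionic eminence, had a value of 0.63 ± 0.45 that did not pass (adjusted p = 0.346). All 3 tested genes of the prethalamus and zona incerta list were higher (Pax6, Meis2, Six3). All 6 tested thalamus genes were lower, Tcf7l2 by -3.57 ± 0.16 (adjusted p = 2.44e-07). Of 6 tested paraventricular genes, 5 were lower, Sim1 by -2.59 ± 0.23 (adjusted p = 1.82e-05). Of the cholinergic genes, 1 could be tested, the choline transporter Slc5a7, which was lower in GABAergic nuclei (-1.40 ± 0.31, edgeR adjusted p = 0.00736), opposite in direction to Lhx8. Of 6 arcuate genes 3 were tested, Pomc, Agrp and Ghrh, with edgeR adjusted p of 0.504, 0.14 and 0.912 and a median of 0.11, and of 6 suprachiasmatic genes none had enough counts to be tested.

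The region lists varied between libraries. The 7 genes of the thalamus list summed to 3003, 2010, 2247, 3980 and 3633 CPM in glutamatergic nuclei and to 1369, 1242, 1118, 1245 and 1420 CPM in GABAergic nuclei. The 6 of the paraventricular list summed to 283, 321, 273, 104 and 219 CPM in glutamatergic nuclei, with CNO 1 lowest. The label of the tissue is the PVH. Its defining factor Sim1 was found, at up to 810 CPM in single sub-clusters, alongside sub-clusters led by genes of other regions.

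The neuron-like nuclei formed 57 sub-clusters of at least 50 nuclei (29 mainly GABAergic, 25 mainly glutamatergic, 3 undecided), numbered S0 upward. The members and Lhx1os, Oxt and Avp had been kept out of the genes used for clustering. Levels by sub-cluster are descriptions without a test. Isl1 was at 20 CPM or more in 20 sub-clusters (19 GABAergic, 1 undecided). Lhx2 reached that level in 7 sub-clusters, Lhx1 and Lhx9 in 6 each, Lhx6 in 2 and Lhx8 in 1. The cut is the same for all genes, so these numbers also depend on how many UMIs each gene has. The 4 highest sub-clusters held 70.2% of the Lhx8 UMIs and 68.6% of the Lhx6 UMIs, but 24.7% of those of Isl1.

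**Figure D2:**
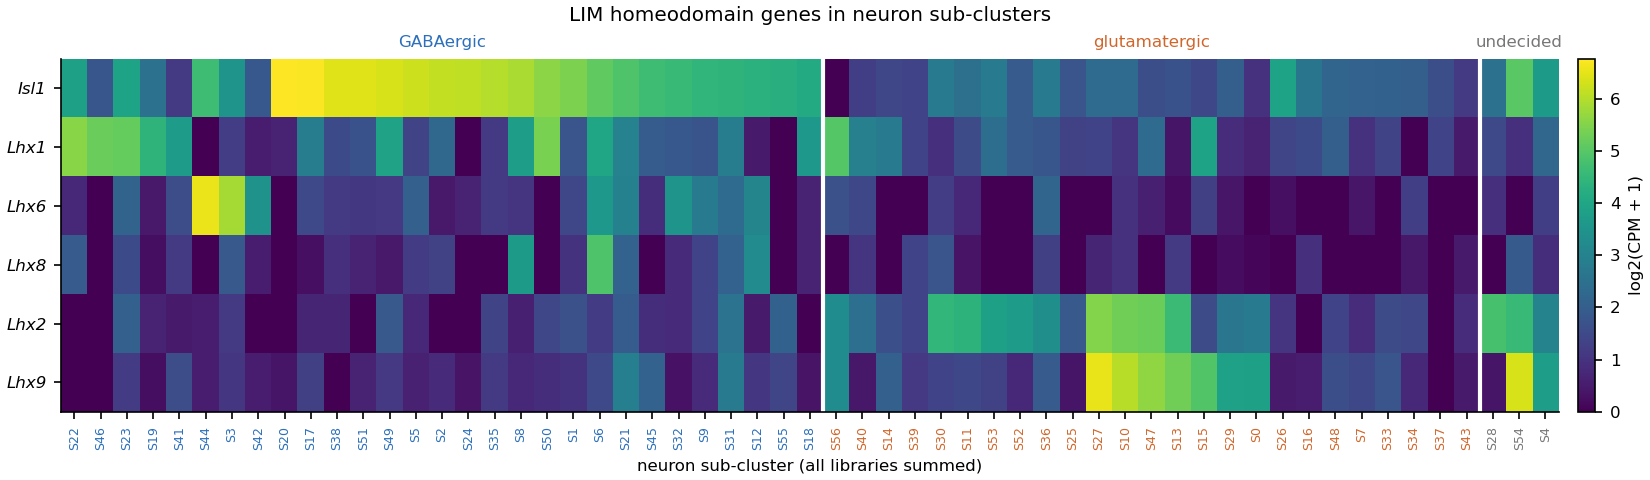
Level of the 6 genes (y axis) in the 57 sub-clusters of neuron-like nuclei (x axis, by transmitter class), all libraries summed, as log2(CPM + 1) on the colour scale. Isl1 reaches 20 CPM in 20 sub-clusters, whereas Lhx6 does so in 2 and Lhx8 in 1.

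Lhx6 was found chiefly in S44 (94.0 CPM, 200 nuclei) and S3 (56.5 CPM, 546 nuclei), and the next level was 11.2 CPM. S44 was led by Moxd1 (318 CPM) and by Sox6 (607 CPM), and S3 by Greb1, Cyp19a1 (aromatase) and Esr2 (an oestrogen receptor). Ordered by Pearson's correlation with Lhx6 over the 57 sub-clusters, the 5 genes most alike were Moxd1 (0.74), Gldn (0.65), Frem3 (0.63), Cyp19a1 (0.63) and Gm34838 (0.62). These correlations and those that follow are descriptions over sub-clusters that share libraries and differ in depth.

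With libraries summed, Lhx8 was highest in S6 (29.1 CPM, 541 nuclei), followed by S8 (12.0 CPM), S12 (8.69 CPM) and S21 (3.40 CPM), all mainly GABAergic. In CNO 2, however, S6 was at 2.97 CPM (4 UMIs), below S8 at 8.49 CPM (4 UMIs), and in the VPA library S12 (7.08 CPM) was slightly above S8 (6.16 CPM). S6 was led by Cdh23 and Gm2164 and S12 by Pappa and the neurotensin gene Nts. The cholinergic enzyme Chat stood at 2.25 CPM in S6 (16 UMIs) beside a median of 0.352 CPM over sub-clusters, and the vesicular acetylcholine transporter Slc18a3 had no UMI there. Dlx1 was at 10.4 CPM and Nkx2-1 at 7.02 CPM in S6, beside medians of 5.79 and 0.719 CPM. The genes most like Lhx8 were Nts (0.56), Gm2164 (0.48), Cdh23 (0.48), Bloc1s2 (0.45) and 4932435O22Rik (0.39), the weakest set among the 6 members.

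With libraries summed, Lhx1 was highest in S22 (46.1 CPM, 375 nuclei), S50 (41.3 CPM), S46 (36.2 CPM) and S23 (34.9 CPM), and in 1 glutamatergic sub-cluster, S56 (30.8 CPM, 54 nuclei). In the saline library S22 was the lowest of the first 4, at 25.1 CPM, and in the VPA library S23 was above it (48.0 against 40.8 CPM). S23 was led in part by Vipr2, the receptor for vasoactive intestinal peptide, Rorb and Rgs16, genes known from the suprachiasmatic nucleus, with Vipr2 at 177 CPM and Rorb at 1719 CPM. Lhx1os, whose start site lies across the 125 bases printed above, was the gene most like Lhx1 (0.93), at 91.2 CPM in S22 and a median of 3.52 CPM. Next came Aatf (0.73), which lies 4761 bases beyond the other end of Lhx1 (chr11:84422855-84513522), at 113 CPM in S22 and a median of 89.8 CPM. The 2 nearest neighbours of Lhx1 were thus its closest matches by level, although Aatf varied much less. Mia2 (0.65), Jade2 (0.57) and Pclo (0.57) followed. Whether strand was used in counting is not known here, and the 2 genes flanking Lhx1 do not overlap it.

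With libraries summed, Isl1 was highest in S20 (108 CPM), S17 (106 CPM), S38 (86.2 CPM), S51 (85.3 CPM) and S49 (81.1 CPM). The order differs within libraries. In the saline library S17 (140 CPM) and S20 (135 CPM) were highest, whereas in the VPA library S20 was at 88.1 CPM, below S17 (108), S38 (107) and S49 (101). S51, with 6 nuclei in the saline and 7 in the VPA library, is left out of both orders. These GABAergic sub-clusters differ in leading genes, with Pax6 in S17, Pvalb in S51 and the dopaminergic genes Th, Ddc and Drd2 in S49. The genes most like Isl1 were Slc32a1 (0.77), Gad2 (0.75), Dlx6os1 (0.73), Ecel1 (0.72) and Gad1os (0.69). Slc32a1 and Gad2 had been used to call the classes.

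Lhx2 and Lhx9 were the pair of members most alike over the sub-clusters (r = 0.71, n = 57), while all other pairs ran from -0.36 (Lhx2 and Isl1) to 0.37 (Lhx6 and Lhx8). Both were high in S27 (Lhx2 44.3 and Lhx9 92.5 CPM), S10 (38.7 and 65.0 CPM), S47 (36.7 and 48.6 CPM) and S13 (23.3 and 38.7 CPM). These 4 glutamatergic sub-clusters shared Tcf7l2, the TCF/LEF factor of the thalamus, at 420, 615, 419 and 434 CPM, beside a median of 6.48 CPM. High Tcf7l2 did not always come with high Lhx2 and Lhx9. S29 and S0, with Tcf7l2 at 845 and 757 CPM, held Lhx2 at 5.31 and 5.74 CPM and Lhx9 at 13.6 and 13.3 CPM. The 4 sub-clusters high in both genes differ in other leading genes, such as Tfap2b in S47 and Glis3 in S10. The genes most like Lhx9 were Nkd1 (0.76), Tcf7l2 (0.76), Shox2 (0.73), Gpr63 (0.66) and Prkch (0.66), and those most like Lhx2 were Bcas3 (0.62), Slc16a6 (0.60), Bdnf (0.60), Camk2n1 (0.60) and Slc17a6 (0.59). Slc17a6 had been used to call the classes.

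In other sub-clusters Lhx2 was found with little Lhx9. S30, led by Oxt (850 CPM, with the PVH factor Sim1 at 596 CPM), held Lhx2 at 21.3 CPM, and S28, with Sim1 at 421 CPM, held it at 26.7 CPM. S11, with Esr2, Oxt at 214 CPM and Sim1 at 343 CPM, held Lhx2 at 19.6 CPM. Tcf7l2 was at 11.9, 6.60 and 3.81 CPM in S30, S28 and S11, so Lhx2 was found there at a level near that in S13 without high Tcf7l2. Lhx9 was also high in S54 (81.8 CPM, 62 nuclei), the sub-cluster led by the hypocretin gene Hcrt (708 CPM) and with the peptide gene Npvf at 51.1 CPM. Lhx9 is known to promote the hypocretin neuron fate. S54 had Lhx2 at 23.2 CPM, near its level in S13, and Tcf7l2 at 53.0 CPM. By library it held 13, 9, 4, 21 and 15 nuclei, in which Lhx9 stood at 43.4, 91.2, 170, 63.9 and 143 CPM (7, 6, 12, 39 and 24 UMIs). All 5 libraries thus showed Lhx9 in this sub-cluster, on few nuclei.

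**Figure D3:**
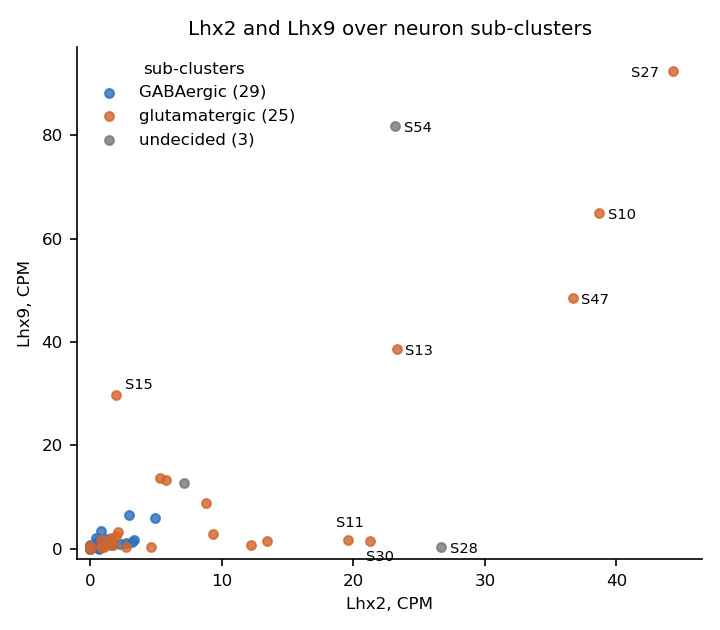
Level of Lhx2 (x axis, CPM) and of Lhx9 (y axis, CPM), one point per sub-cluster of at least 50 nuclei, coloured by transmitter class. S27, S10, S47, S13 and S54 are high in both, S15 (29.7 CPM) is high in Lhx9 alone, and S30, S28 and S11 are high in Lhx2 with Lhx9 near 0.

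Within single glutamatergic nuclei the pair was also found together. Of 474 nuclei with a Lhx9 UMI, 35.7% also had a Lhx2 UMI (95% exact binomial interval 31.3 to 40.2), against 11.1% of the 2016 without. The share was higher in the nuclei with Lhx9 in each library, at 32.0%, 34.4%, 40.3%, 39.4% and 35.8% against 13%, 6.68%, 11.5%, 12.2% and 12.4%. Nuclei with Lhx9 were deeper (median 18315 against 14920 UMIs). In GABAergic nuclei the shares were 16.5% with Lhx9 and 1.41% without, and those with Lhx9 were again deeper (median 24779 against 10642 UMIs). Inside sub-clusters, counted over all nuclei whatever their call, the gap was narrower than in the glutamatergic class. It was 48.4% against 31.4% in S10 (median 16127 against 11239 UMIs), 31.6% against 21.2% in S13, 33.1% against 32.4% in S27 and 29.3% against 30.6% in S47. The part of depth in the remaining gap was not tested. In GABAergic nuclei of the saline library, Isl1 was found in 7.26% of nuclei with Lhx6 and 35.8% of those without, and in 15.7% of nuclei with Lhx1 and 34.6% of those without.

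Prenatal VPA was compared with prenatal saline within each class, to ask what the exposure left changed in the offspring at 5 weeks. No member passed the fold used, 1.5 times on log2(CPM + 2) at a mean of at least 5 CPM, in either class. Of the members, 3 could be tested in GABAergic nuclei (Lhx1, Lhx6, Isl1) and 2 in glutamatergic nuclei (Lhx2, Lhx9). Over all genes, 1.77% were past the fold in GABAergic nuclei (195 of 11029, 0.979% higher and 0.789% lower). In glutamatergic nuclei 4.45% were (484 of 10880, 3.17% higher and 1.28% lower). Members past the fold, 0 of 3 and 0 of 2, were thus near that background. In these bulk sums over a class, fewer cells expressing a gene and less RNA per cell cannot be told apart.

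Lhx2 and Lhx9 in glutamatergic nuclei were nearly level between the 2 libraries, at 13 and 14.5 CPM (log2 ratio 0.16, counting interval -0.25 to 0.55) and at 20.7 and 18.4 CPM (-0.17, -0.53 to 0.17). Both intervals hold 0. Over the same 2 libraries, 5 of 6 tested thalamus genes were past the fold and lower after VPA, with a list median of -0.88 beside 0.07 over all genes. Tcf7l2, the gene most like Lhx9 over sub-clusters together with Nkd1, was 1 of these 5. The share of glutamatergic nuclei in the 4 sub-clusters highest in Lhx9 was 19.2% in the saline and 19.7% in the VPA library.

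In GABAergic nuclei Isl1 was 50.1 CPM after saline and 41.3 CPM after VPA, a log2 ratio of -0.28 (-0.41 to -0.14). Lhx6 was 11.1 and 6.92 CPM (-0.69, -1 to -0.38), and Lhx1 4.99 and 7.47 CPM (0.58, 0.22 to 0.96). On the log2(CPM + 2) scale, which understates the change of low genes, these were -0.56 for Lhx6 and 0.44 for Lhx1, and so under the fold. Lhx6 was past it when nuclei were classed by sub-cluster (-0.67) or with a pseudocount of 0.5 CPM (-0.65). The median over all genes was 0.04. Each of the 3 intervals lies on one side of 0 as far as counting error goes, but the spread between libraries of one group is not known for these 2 groups.

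Lhx8 was below the level needed for the fold rule, at 5.46 CPM after saline (116 UMIs) and 1.96 CPM after VPA (39 UMIs), a log2 ratio of -1.48 (-2.04 to -0.95). Its value on the log2(CPM + 2) scale was -0.91, past the fold when genes down to 1 CPM are admitted. Lhx2 (0.04, -0.78 to 0.86) and Lhx9 (0.97, -0.11 to 2.12) in GABAergic nuclei had intervals that hold 0, on 12 to 28 UMIs per library. The sub-clusters highest in a member made up different shares of the called GABAergic nuclei in the 2 libraries. For the 4 highest in Lhx1 these were 5.97% (saline) and 12.7% (VPA), for Lhx6 18.2% and 13%, for Lhx8 16.1% and 12.3%, and for Isl1 15.5% and 11.4%. The class level and the share of the 4 sub-clusters together thus moved the same way for these 4 genes, but the parts differed. For Lhx6, S6, with less Lhx6, went from 7.13% to 2.79%. S3 went from 6.62% to 5.36% and S44 from 2.38% to 2.10%, while S32 went from 2.06% to 2.75%. The 4 sub-clusters of Isl1 held 24.7% of its UMIs. The part of the dissection in these shares was not tested.

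Early postnatal CNO in mice with the hM3 receptor was compared with saline in mice of the same genotype and prenatal VPA exposure, to ask what stimulation of oxytocin neurons left changed. No member was past the fold in both CNO libraries in either class. Over all genes, 0.875% were past it in GABAergic nuclei (98 of 11198, 0.848% higher and 0.0268% lower). In glutamatergic nuclei 3.12% were (346 of 11086, 2.28% higher and 0.839% lower), so 0 of 3 and 0 of 2 testable members were again near the background.

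Isl1 in GABAergic nuclei was level, at 35.0 CPM in the control, 33.4 in CNO 1 and 35.9 in CNO 2. The log2 ratios were -0.07 (-0.20 to 0.07) and 0.04 (-0.14 to 0.22). In glutamatergic nuclei, where it was under the mean level needed for the fold rule, Isl1 was at 1.25, 3.78 and 2.30 CPM (11, 41 and 10 UMIs). The log2 ratios there were 1.60 (0.61 to 2.71) in CNO 1 and 0.88 (-0.51 to 2.26) in CNO 2. Lhx1 in GABAergic nuclei was above the control in both CNO libraries, at 7.49, 9.34 and 11.1 CPM, by 0.32 (0.05 to 0.59) and 0.57 (0.22 to 0.91). Those 2 intervals overlap and lie above 0, yet the change was under the fold. The share of GABAergic nuclei in the 4 sub-clusters highest in Lhx1 ran the other way, at 7.86%, 6.63% and 3.90%. Inside sub-clusters, admitted by the count rule given further below, the median Lhx1 ratio was 0.47 in CNO 1 (11 sub-clusters) and 0.71 in CNO 2 (10 sub-clusters).

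Lhx6 separated the 2 CNO libraries. It was 9.89 CPM in the control, 12.4 CPM in CNO 1 and 2.86 CPM in CNO 2, with log2 ratios to the control of 0.32 (0.09 to 0.55) and -1.79 (-2.43 to -1.21). CNO 2 was lower than CNO 1 by 2.11 on the log2 scale, so the 2 libraries of the CNO group lie on opposite sides of the control and allow no statement on CNO. Without CNO 1, Lhx6 would have been past the fold at -1.29 on log2(CPM + 2), and without CNO 2 it was 0.27. S44, the sub-cluster highest in Lhx6, took 3.16% of GABAergic nuclei in the control, 2.93% in CNO 1 and 0.162% in CNO 2, and S3, the next, took 8.42%, 6.40% and 2.27%. The share of the 4 highest sub-clusters together was 17.5%, 21.8% and 16.1%, in which S6, with less Lhx6, took 3.40%, 8.02% and 12.2%.

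Lhx8 was below the control in both CNO libraries, at 6.49 CPM in the control (200 UMIs), 3.03 in CNO 1 (77 UMIs) and 1.43 in CNO 2 (13 UMIs). The log2 ratios were -1.10 (-1.50 to -0.71) and -2.18 (-3.12 to -1.38). The gene was under the mean level needed for the fold rule. On log2(CPM + 2) its values were -0.75 and -1.31, past the fold in both libraries when genes down to 1 CPM are admitted. In a mean that gave equal weight to each of 7 sub-clusters, Lhx8 was at 14.4 CPM in the control. There it was past the fold in both CNO libraries without the lower limit, at -1.29 and -1.79. The share of GABAergic nuclei in the 4 sub-clusters highest in Lhx8 was 24.6% in the control (binomial interval 22.5 to 26.8). It was 27.1% in CNO 1 (24.7 to 29.6) and 29.4% in CNO 2 (25.8 to 33.2). These intervals cover the counting of nuclei within a library and not the spread between libraries, and the shares were not tested. The parts of the share differed. S6, the highest in Lhx8 in the control and CNO 1 but not in CNO 2, was 3.40%, 8.02% and 12.2% of GABAergic nuclei and S12 was 11.9%, 7.71% and 0%.

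Lhx2 and Lhx9 in glutamatergic nuclei differed little from the control, at 11.9, 12.7 and 14.7 CPM for Lhx2 (0.09, -0.28 to 0.47, and 0.31, -0.17 to 0.77). For Lhx9 the levels were 18.2, 17.4 and 24.0 CPM (-0.06, -0.37 to 0.25, and 0.40, 0.03 to 0.76). By contrast, 5 of 6 tested thalamus genes were past the fold and higher in both CNO libraries (list medians 1.06 and 0.97, beside 0.04 and -0.01 over all genes). Of 6 paraventricular genes 4 were tested, and 2 of them, the PVH factors Sim1 and Otp, were past the fold and lower in both CNO libraries. The other pair, Oxt and Avp, parted between the libraries, at 44.0, 18.6 and 81.6 CPM for Oxt and 18.5, 3.41 and 28.6 CPM for Avp in the control, CNO 1 and CNO 2, and the list median was -1.25 in CNO 1 and -0.15 in CNO 2. In GABAergic nuclei, Lhx2 was lower in CNO 1 (-0.82, -1.54 to -0.14) and higher in CNO 2 (0.90, 0.23 to 1.55), on 27 to 58 UMIs. Lhx9 was near the control in CNO 1 (0.07, -0.49 to 0.63) and above it in CNO 2 (1.06, 0.43 to 1.68). Hcrt and Pmch, markers of the lateral hypothalamus, were past the fold and higher in both CNO libraries in GABAergic nuclei, at a summed 4.96 CPM in the control, 19.4 in CNO 1 and 44.6 in CNO 2. The part of the dissected area in the levels of the members was not tested.

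**Figure D4:**
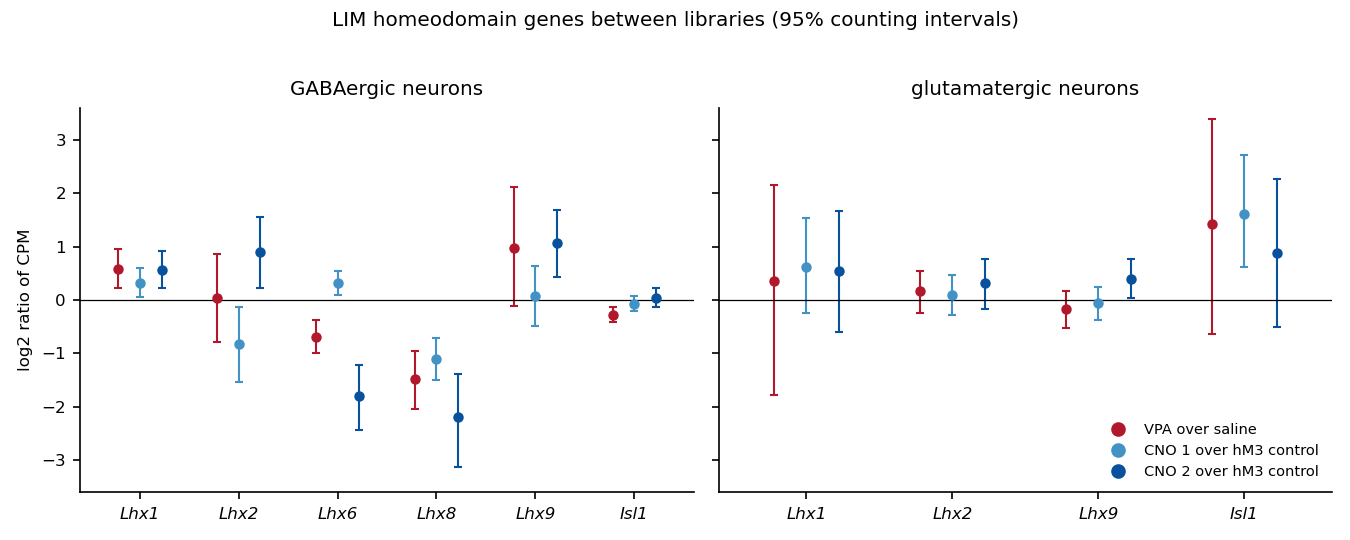
Log2 ratio of CPM (y axis, with 95% counting intervals as bars) of each member (x axis) for VPA over saline and for each CNO library over the hM3 control, in GABAergic and glutamatergic nuclei (Lhx6 and Lhx8 not drawn in the latter, with 0 to 2 UMIs per library). Lhx6 points to opposite sides in the 2 CNO libraries (0.32 and -1.79), and Lhx8 lies below 0 in all 3 comparisons in GABAergic nuclei.

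The 8 LIM cofactors expressed enough for these contrasts gave 0 genes past the fold in each of the 4 comparisons.

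Levels inside a sub-cluster set aside the share it takes of a class, and were read where both libraries had at least 20 nuclei and together at least 10 UMIs, a rule that 1 library alone could meet. In S6, the sub-cluster highest in Lhx8 with libraries summed, the gene stood at 37.0, 39.2, 59.0, 20.2 and 2.97 CPM (63, 31, 65, 44 and 4 UMIs in 121, 110, 67, 120 and 123 nuclei). The saline and VPA libraries were alike, the control was highest, and both CNO libraries were lower. Against the control the log2 ratios were -1.55 (-2.14 to -0.98) in CNO 1 and -4.32 (-6.23 to -2.89) in CNO 2. In S21 the ratios were -1.99 (-3.33 to -0.82) and -2.55 (-4.91 to -0.85), but nuclei of S21 had 3.27 times the median UMIs of their libraries. S8 and S12, the next highest in Lhx8 after S6, had intervals that hold 0 (-0.41 in CNO 1 and -0.48 in CNO 2 for S8, and -0.64 in CNO 1 for S12). No count of sub-clusters by direction is given for CNO, since several were admitted through the UMIs of 1 library alone. For VPA the interval lay below 0 in S8, where Lhx8 was 24.7 CPM after saline and 6.16 CPM after VPA (-2, -3.21 to -0.92).

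S6 differed in other members too. Isl1 was 35.9 CPM after saline, 29.1 after VPA, 55.4 in the hM3 control and 27.9 and 23.7 CPM in CNO 1 and CNO 2 (CNO ratios -0.99, -1.52 to -0.45, and -1.22, -1.89 to -0.58). Lhx1 was 11.2, 8.84, 7.27, 21.1 and 19.3 CPM in the 5 libraries (CNO ratios 1.54, 0.44 to 2.83, and 1.41, 0.22 to 2.76). Against this 1 control library, which both ratios share, Lhx8 and Isl1 were lower and Lhx1 higher. For Isl1 and Lhx8 the hM3 control was also the highest of all 5 libraries, and for Isl1 the CNO values lay near those of the VPA library. Whether S6 holds the same mixture of neurons in each library was not tested.

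Lhx6 in S3 stood at 74.1, 61.3, 43.8, 63.8 and 9.51 CPM, the last on 19 nuclei. CNO 1 was above the control there (0.54, 0.16 to 0.92). In S44 it stood at 126, 86.2, 69.5 and 102 CPM in the first 4 libraries, with 1 nucleus in CNO 2. In both sub-clusters the saline library was the highest and the hM3 control the lowest of these 4. For VPA the ratios were -0.27 (-0.68 to 0.13) in S3 and -0.54 (-1.15 to 0.05) in S44, and both intervals hold 0. Lhx6 was lower after VPA in S9, at 13.3 and 2.81 CPM on 6 UMIs each (-2.24, -4.15 to -0.34). S5, with 11 and 0 UMIs, was admitted through the saline library alone and is not read as a change. CNO 2 was below the control in S6 (16.4 and 5.19 CPM, -1.66, -3.16 to -0.33) and in S21 (10.3 and 2.34 CPM, -2.13, -3.66 to -0.89). The UMIs of the control alone would have admitted S6 (18 UMIs) and S21 (42 UMIs). S31, with 16 UMIs in the control and 0 in CNO 2, was admitted through the control alone and is not read as a change.

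Lhx1 in S22 stood at 25.1, 40.8, 58.4, 68.6 and 87.4 CPM (56, 233, 43, 23 and 20 nuclei), and in S23 at 39.1, 48.0, 25.6, 35.4 and 44.4 CPM (5, 214, 79, 62 and 3 nuclei). The order of libraries in S22 was thus not that in S23. For VPA the median ratio over the 9 sub-clusters with enough counts was 0.33, and no interval excluded 0. The intervals were wide, as in S22 on 14 and 53 UMIs (0.70, -0.17 to 1.67), so a rise like that of the class level could not be seen or excluded there.

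Isl1 in S20 was 135 CPM after saline and 88.1 after VPA (-0.62, -0.98 to -0.26), and in S17 it was 140 and 108 CPM (-0.37, -0.69 to -0.07). For VPA its interval lay below 0 in 5 of 23 sub-clusters and above 0 in 1, with a median ratio of -0.11. The lower class level of Isl1 after VPA was thus also seen inside some sub-clusters, and S32 ran the other way, from 9.15 to 31.1 CPM on 5 and 25 UMIs (1.77, 0.36 to 3.51).

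Lhx9 varied little between libraries in S10 and S27. It stood at 65.3, 66.4, 61.8, 63.8 and 70.3 CPM in S10 and at 88.5, 88.9, 112, 112 and 77.2 CPM in S27. In S47 it stood at 63.6, 41.4, 41.9, 27.6 and 12.9 CPM, the last 3 on 9 to 19 nuclei, and in S13 at 38.5, 45.6, 30.3, 48.2 and 23.1 CPM. For VPA no interval excluded 0 in 7 sub-clusters. S15 was lower in both CNO libraries, at 41.8 CPM in the control and 20.1 and 16.4 CPM (-1.06, -1.86 to -0.28, and -1.35, -2.52 to -0.33). Lhx2 stood at 36.6, 44.7, 31.1, 48.7 and 39.5 CPM in S10 and at 14.9, 26.7, 19.9, 33.0 and 19.7 CPM in S30, the oxytocin-rich sub-cluster. For VPA no interval of Lhx2 excluded 0 in 9 sub-clusters. In S0, where both genes were low, CNO 2 was below the control for Lhx2 (-1.43, on 22 and 6 UMIs) and for Lhx9 (-1.17).

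**Figure D5:**
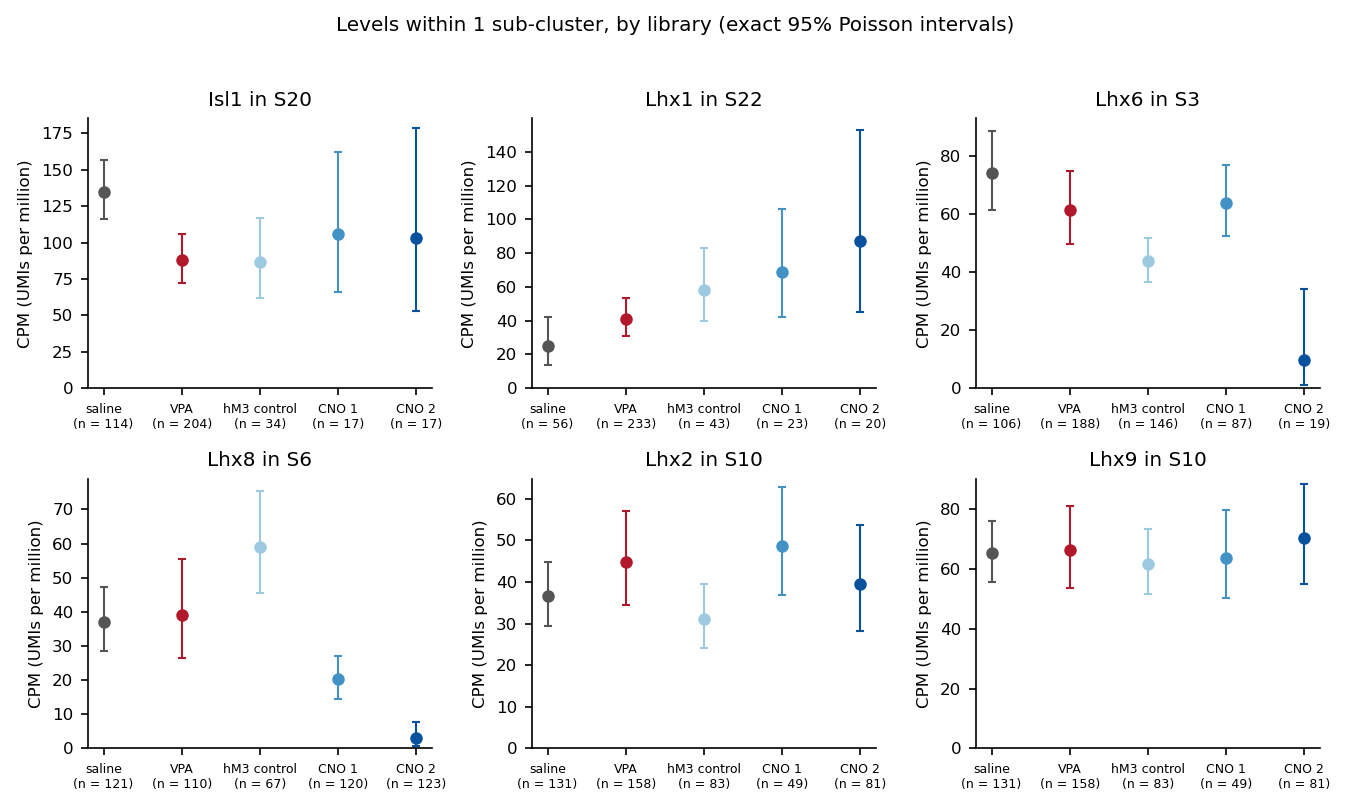
Levels (CPM, y axis) by library (x axis, n = nuclei) of each member inside a sub-cluster where it is high, with 95% Poisson intervals as bars. Lhx8 in S6 is at 59.0 CPM in the hM3 control, 20.2 CPM in CNO 1 and 2.97 CPM in CNO 2, while Lhx9 in S10 stays between 61.8 and 70.3 CPM.

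Tanycyte-like nuclei were few. A cluster of 66 nuclei with tanycyte markers (18 saline, 26 VPA, 9 hM3 control, 2 CNO 1, 11 CNO 2) was divided again. Of these, 48 nuclei carried mural and fibroblast genes such as Col1a2 (94 UMIs) and Dcn (72 UMIs) and were set apart. The tanycyte-like part held 18 nuclei, all from the VPA library, with 60586 UMIs in all and a median of 2656 per nucleus. Among tanycyte markers in this part, Rax had 14 UMIs, Col23a1 157, Scn7a 224 and Dio2 12, while Gpr50 and Nes had none. Lhx2 had 2 UMIs there, or 33.0 CPM (4.00 to 119), in 11.1% of the nuclei. Isl1 had 1 UMI, and Lhx1, Lhx6, Lhx8 and Lhx9 had none, which allows up to 49.5 CPM each. The Lhx2 interval includes the levels of the highest neuronal sub-clusters and also that of 101 ependymal-like nuclei (3 UMIs, 7.39 CPM), so a tanycyte level of Lhx2 above or below that of neurons was not detectable at this depth. Because every such nucleus came from 1 library, no comparison of treatments was possible in them.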

How the data were processed

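The files are raw counts: whole UMIs per gene and nucleus, deposited by the authors as 5 filtered 10x matrices. Cell Ranger 7.0.1 and mm10 are named per the submitters' processing notes. The annotation, intron and strand settings are not given in the sources used here. Features numbered 31054; the custom Cre sequence was left out. The 6 members and all gene lists were chosen with earlier results of these data known.

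A nucleus needed 1000 UMIs or more, of which no more than 5% mitochondrial. The highest doublet scores (Scrublet in scanpy 1.11.5) were removed up to 0.8% per 1000 nuclei, which took out 262, 944, 216, 149 and 268 nuclei (saline, VPA, hM3 control, CNO 1, CNO 2). Clustering used 2000 variable genes, 30 components, 20 neighbours and Leiden resolution 1 (38 clusters). Neuron-like clusters were divided again at resolution 2. The cluster with tanycyte markers was also divided, into a tanycyte-like part and the rest. The class rule of at least 2 UMIs and a 4-fold excess is given with the results. A sub-cluster was mainly glutamatergic where at least 50% of its called nuclei were glutamatergic, GABAergic at 25% or less, and undecided between. The mixed and unnamed clusters set aside were chosen by thresholds set after the clusters had been seen.

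Counts were summed per library and class, giving 10 sums. edgeR 4.0.16 (quasi-likelihood test, TMM, expression filter) was fitted to all genes with library and class as terms, with Benjamini-Hochberg adjustment, and was tested on simulated data. Both classes of a library come from the same mice, so library pairs them. DESeq2 1.42.0 was an alternative. Treatment contrasts used log2(CPM + 2), a 1.5-fold limit and a mean of at least 5 CPM, and CNO needed both libraries. Named were the members and, by correlation of log levels over sub-clusters, the 5 genes most like each. Confidence level was 95% and the floor 3 counts.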

Additional observations from a re-analysis of the deposited data

Results flagged for a closer look

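Some values lie outside the comparisons. In nuclei of clusters set aside as mixed (1142 nuclei, median 17295 UMIs), all 6 genes were above their level in oligodendrocyte-marker nuclei. They stood at 8.46 CPM for Lhx1, 3.97 for Lhx2, 2.26 for Lhx6, 1.45 for Lhx8, 6.83 for Lhx9 and 21.2 for Isl1. Cluster 21, an unnamed cluster led by Slc6a3 and mitochondrial genes, with 187 of its 255 nuclei from CNO 2, held Lhx1 at 10.8 CPM and Isl1 at 10.3 CPM. Cluster 27, an unnamed cluster led by Gabra6 with 121 of 122 nuclei from the VPA library, held Lhx1 at 22.4 CPM (5 UMIs, 7.28 to 52.3).

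3 comparisons had sub-clusters whose counting intervals lay on opposite sides of 0, and the difference between the sub-clusters was not tested. Lhx2 in CNO 1 against the control was 0.64 on the log2 scale in S10 and -0.87 in S4, an undecided sub-cluster whose nuclei had 3.34 times the median UMIs of their libraries. Isl1 after VPA was 1.77 in S32 and -1.05 in S1. Isl1 in CNO 1 was 2.72 in S45, led by Skor2, and -1.19 in S23, led in part by Vipr2.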

How the results depend on the processing

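In the class comparison Lhx1, Lhx2, Lhx9 and Isl1 kept their direction and their call under all 11 alternatives. Lhx6 and Lhx8 entered through the GABAergic sums, so their calls bear on nothing here. Of all calls, the share higher in GABAergic nuclei was 45.3%, but 56.5% with no expression filter and 52% with sub-cluster classes. Of 78 values that answer a comparison, 62 were alike, within 1.5 times for counts, and 16 moved. Without the replicate block that pairs the 2 classes of a library, 1668 genes passed in place of 4313. DESeq2 gave 3049, no expression filter 5124, and leaving out single libraries 3136 to 3956. In GABAergic nuclei after VPA, 1 member was past the fold with sub-cluster classes (Lhx6), 1 with a pseudocount of 0.5 CPM (Lhx6) and 1 with the filter at 1 CPM (Lhx8). The count of genes there was 317 with the lower pseudocount. In glutamatergic nuclei after VPA it was 291 with sub-cluster classes and 854 with the lower filter. For CNO in GABAergic nuclei, 1 member was past the fold with the lower filter (Lhx8), 1 with equal weight per sub-cluster (Lhx8) and, by the CNO library left out, 0 to 1 (Lhx6 without CNO replicate 1). The genes were 172 with the lower pseudocount, 215 with equal weight, and 319 to 1293 with a CNO library left out, since both are then no longer needed. In glutamatergic nuclei the latter range was 851 to 1481. The cause of the other moves was not tested. Of 414 values for single genes, 121 moved, of which 54 were shares of nuclei counted at 2 UMIs or more and 54 shares after thinning. Depth limits Lhx6 and Lhx8 in glutamatergic nuclei, all members in tanycyte-like nuclei, and the treatment contrasts, where the CNO group alone has 2 libraries.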
